A study of Mus musculus with 10 samples.

Results

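The genes described here were 10 regulators of apoptosis of the BCL2 family. They were chosen by name and not by a cutoff on their values, though earlier results of these data were known. They were Bcl2, Bcl2l1, Mcl1, Bax, Bak1, Bid, Bad, Bbc3, Pmaip1 and Bcl2l11, 10 of the 18055 genes listed in any library, and all 10 were among the 14097 genes with enough reads to test. The study asked how Neurotropin (NTP), an extract of inflamed rabbit skin used against chronic pain, acts on hepatocytes loaded with free fatty acids (FFAs). RNA was sequenced from primary hepatocytes, parenchymal cells freshly isolated from the liver, of C57BL/6 mice in 5 groups of 2 libraries each. The groups were Vehicle, 200 µM palmitate (PA) for 24 h, 12 µM linoleate (LA) for 24 h, and each FFA after 1 h of pretreatment with NTP at 0.4 NU/mL (PA+NTP and LA+NTP). All groups shared strain, cell type and culture, no group received NTP without an FFA, and the age of the mice is not given in the sources used here. Nothing in the labels says that the 2 libraries of a group came from separate mice or cultures, so the p-values measure only the spread between these libraries, which may be technical.

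Proteins of the BCL2 family decide at the outer mitochondrial membrane whether a cell releases cytochrome c and activates its caspases. The guardians (BCL2, BCL-xL, MCL1) hold the pore-forming effectors BAX and BAK in check, and the BH3-only proteins, which sense stress, bind guardians or activate effectors. In hepatocytes BCL-xL and MCL1 are the guardians on which survival rests, BID links death receptors to mitochondria, and saturated FFAs such as PA are known to cause lipotoxic apoptosis in which PUMA (Bbc3) and BIM (Bcl2l11) take part.

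Libraries held 13142588 to 60046937 expected counts, the estimated number of reads per gene, and member genes held between 78.5 (Bcl2) and 12835 (Mcl1) of them in a library. Of 8 hepatocyte markers 7 were listed, and their summed level was 2314 to 4180 FPKM (fragments scaled for gene length and library size) over the 10 libraries. It was lower with PA (2314 to 2541) than with Vehicle (3291 to 3498) or LA (3319 to 3379). All 7 Kupffer cell and macrophage markers were listed, with sums of 208.04 to 208.08 FPKM with Vehicle, 201.87 to 237.77 with PA and 266.45 to 296.13 with PA+NTP. They were 125.78 to 130.45 with LA and 182.14 to 196.25 with LA+NTP. Cd68 alone held 203.28 and 203.46 FPKM with Vehicle, 195.26 and 232.43 with PA, and 121.56 and 125.86 with LA. The sums therefore mostly follow Cd68. In bulk RNA, fewer cells of a type and less RNA per cell cannot be told apart. The libraries also differed in base composition. Across 13977 genes, the Spearman correlation of a gene's departure from its mean level with its GC content was 0.382 to 0.420 with Vehicle, −0.473 to −0.468 with PA, −0.558 to −0.557 with LA, 0.337 to 0.398 with PA+NTP and 0.531 to 0.561 with LA+NTP. Values after removal of a smooth trend over GC content are therefore given beside many of the tests.

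The promoters of 9 members (15 start sites) were found in the RefSeq table of GRCm38.p6, and 3 are printed here because the results turn on their genes. No promoter window was available for Pmaip1, so it was not searched for any motif. Mcl1 rose with both FFAs and Bbc3 fell with both, while Bid was higher with PA than with LA. Each line gives the 150 bases before the start site, 5′ to 3′ on the gene's strand, from chr3:95658571-95658720 (plus strand) for Mcl1, chr6:120916825-120916974 (minus strand) for Bid and chr7:16309433-16309582 (plus strand) for the first Bbc3 start site. Capitals mark GC boxes (GGGCGG on either strand) and, in Bbc3, a cyclic AMP element core (TGACG on either strand).
Mcl1: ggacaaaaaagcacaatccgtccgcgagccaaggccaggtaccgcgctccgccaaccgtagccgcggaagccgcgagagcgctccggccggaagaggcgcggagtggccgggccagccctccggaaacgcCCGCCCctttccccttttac
Bid: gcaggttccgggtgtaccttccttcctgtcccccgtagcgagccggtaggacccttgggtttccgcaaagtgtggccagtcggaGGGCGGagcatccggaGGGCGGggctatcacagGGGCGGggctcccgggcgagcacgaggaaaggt
Bbc3: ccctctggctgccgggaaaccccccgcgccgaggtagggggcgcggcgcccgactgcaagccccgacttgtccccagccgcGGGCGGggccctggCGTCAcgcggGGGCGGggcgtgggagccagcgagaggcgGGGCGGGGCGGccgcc
GC boxes numbered 1 before Mcl1, 3 before Bid and 5 before Bbc3 in the 250 bases before the start site, a window in which 32.7% of 32841 promoters held at least 1. The TGACG core, found in 17.8% of these promoters, occurred before Bbc3 and not before Mcl1 or Bid. A 10-base copy of the p53 consensus, found in 7.13% of promoters, was matched before Bax at position −201 and in no window of the other members searched. In the same windows, a FOXO element (GTAAACA), present in 3.17% of promoters, was matched at position −227 from the first Bcl2l11 start site and at −167 from the second of Bbc3. A CCAAT box, found in 33.9% of promoters, was matched before Bcl2l11, Bad and the third Bbc3 start site. No window searched held the AP-1 element TGACTCA (4.46% of promoters), the C/EBP-ATF element TGATGNAA (3.45%) or a CArG box (1.47%). These are matches of letters only. The first Bbc3 window was 76.4% G or C, higher than 97% of promoters, against 64.4% for Mcl1, 63.6% for Bid and a median of 52.4% over all promoters.

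Levels of the members spanned a wide range in Vehicle-treated hepatocytes, and FPKM allows genes of different length to be compared. Bax (chr7:45461695-45466903) was highest at 101.27 ± 9.94 FPKM (SD, n = 2), followed by Bcl2l1 at 74.1 ± 2.80, Mcl1 at 65.4 ± 1.22 and Bak1 at 52.6 ± 0.0424. Bid held 21.5 ± 0.205, Bbc3 11.2 ± 0.856 and Bad 9.11 ± 0.742 FPKM. Pmaip1, Bcl2l11 and Bcl2 were lowest at 2.77, 2.19 and 1.22 FPKM, so Bcl2 was the least abundant of the 10 transcripts. With Vehicle, no neighbours in this order overlapped between libraries. In the PA and LA groups, Mcl1 stood above Bcl2l1, and the ranges of Bad and Bbc3 overlapped. Bad and Bbc3 also overlapped with PA+NTP and LA+NTP, as did Bak1 and Bcl2l1 with PA+NTP.

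**Figure D1:**
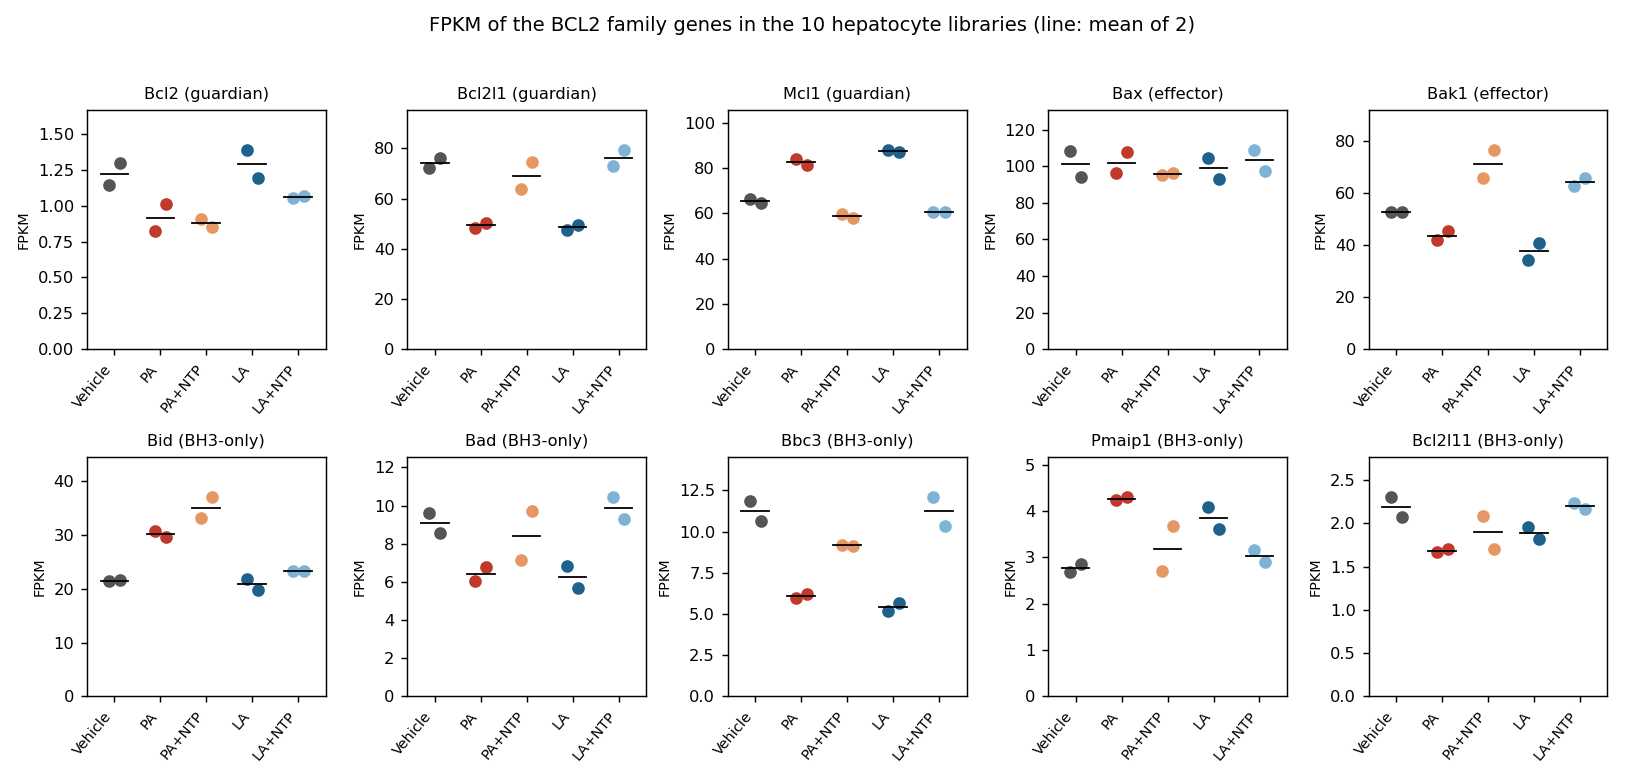
FPKM (linear axes from 0, a separate scale for each gene) of the 10 members in the 5 groups, with 1 point per library and a line at the mean of 2. Bcl2l1 and Bbc3 sit lower and Mcl1 higher with PA and LA than in the other 3 groups, Bid is high with PA and PA+NTP, and Bax stays between 93.2 and 109.09 FPKM in all libraries.

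Among the guardians, Mcl1 and Bcl2l1 moved in opposite directions with both FFAs. Mcl1 (chr3:95656944-95663179), a short-lived guardian, held 66.3 and 64.5 FPKM with Vehicle, 84.1 and 81.3 with PA, and 88.1 and 86.8 with LA. Both FFA groups lay above Vehicle with no overlap. Its level rose by 0.37 (log2, SE 0.05) with PA and by 0.47 (SE 0.05) with LA, with adjusted p = 8.0e-05 and 1.8e-05 by edgeR's quasi-likelihood test with Benjamini-Hochberg adjustment over all tested genes. Neither reached a fold of 1.5, although both did after the GC trend was removed, at 0.60 with PA and 0.70 with LA. Bcl2l1 (chr2:152758732-152833803), which encodes BCL-xL, held 72.1 and 76.1 FPKM with Vehicle, 48.3 and 50.4 with PA, and 47.7 and 49.5 with LA. Again the groups did not overlap. It fell by 0.55 (log2, SE 0.08) with PA and by 0.56 (SE 0.08) with LA, with adjusted p = 7.0e-05 and 6.8e-05, and by 0.30 in each case after the GC trend was removed (adjusted p = 0.015 and 0.024). Its fold passed 1.5 only without Vehicle library 1 among the libraries left out in turn, at −0.59 with PA and −0.60 with LA. Bcl2 (chr1:106538176-106714290) held 1.14 and 1.30 FPKM with Vehicle, 0.82 and 1.01 with PA, and 1.39 and 1.19 with LA, and passed no test against Vehicle (adjusted p = 0.22 and 0.27). The PA and LA comparisons share the Vehicle libraries and are not independent of each other.

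Of the effectors, Bak1 fell with both FFAs by adjusted p, and Bax did not pass as fitted. Bax held 108.30 and 94.2 FPKM with Vehicle, 96.2 and 107.57 with PA, and 104.70 and 93.2 with LA, so all ranges overlapped. Its difference from Vehicle was 0.05 (log2, SE 0.09) with PA (adjusted p = 0.68), with a 95% interval of −0.138 to 0.238. Leaving out PA library 2 or Vehicle library 2 turned that sign, and removal of the GC trend raised the value to 0.47 (adjusted p = 0.00072). With LA the Bax difference was 0.02 (adjusted p = 0.90) as fitted and 0.46 (adjusted p = 0.0017) with the trend removed. Bak1 (chr17:27019812-27028627), which sits in the outer mitochondrial membrane at rest, held 52.6 and 52.5 FPKM with Vehicle, 41.7 and 45.2 with PA, and 34.3 and 40.9 with LA. Both FFA groups lay below Vehicle with no overlap. Bak1 fell by 0.24 (SE 0.09) with PA and by 0.44 (SE 0.09) with LA, with adjusted p = 0.049 and 0.0015, and with the GC trend removed the values were 0.08 and −0.10 (adjusted p = 0.56 and 0.53).

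The BH3-only genes did not move as a group. Bbc3 (chr7:16308398-16318334), which encodes PUMA, a binder of all guardians and a target of p53, held 11.8 and 10.6 FPKM with Vehicle, 6.00 and 6.20 with PA, and 5.20 and 5.68 with LA. Each FFA group was lower than Vehicle in both libraries. Its level fell by 0.84 (log2, SE 0.11) with PA and by 1.00 (SE 0.11) with LA, with adjusted p = 3.1e-05 and 1.1e-05 by edgeR's quasi-likelihood test. Bbc3 is 68.0% G or C, a value above that of 99.9% of tested genes, and with the GC trend removed the differences were −0.10 and −0.22 (adjusted p = 0.55 and 0.19). Pmaip1 (chr18:66458604-66465558) encodes NOXA, a binder of MCL1, and held 2.68 and 2.86 FPKM with Vehicle, 4.23 and 4.31 with PA, and 4.08 and 3.61 with LA. It was higher with either FFA in every library. Pmaip1 rose by 0.66 (SE 0.16) with PA and by 0.52 (SE 0.16) with LA, with adjusted p = 0.0036 and 0.016, and the LA value reached a fold of 1.5 without LA library 2 (0.61). Pmaip1 is GC-poor (41.5%), and with the GC trend removed its differences were 0.34 and 0.17 (adjusted p = 0.13 and 0.51).

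Bid and the remaining BH3-only genes showed other patterns. Bid (chr6:120893119-120917062), cut by caspase-8 into its active form, held 21.4 and 21.7 FPKM with Vehicle, 30.7 and 29.6 with PA, and 21.9 and 19.8 with LA. The PA libraries lay above all others without NTP, and the LA libraries spanned the Vehicle values. Bid rose by 0.51 (log2, SE 0.08) with PA, a 1.43-fold change with adjusted p = 0.00015, and its 95% interval with LA was −0.176 to 0.172 (adjusted p = 0.99). With 51.3% G or C it lies near the middle of the tested genes, and the PA value was 0.59 (adjusted p = 0.00014) with the GC trend removed, past a fold of 1.5. Bad (chr19:6941861-6951905), which is held inactive by survival kinases, held 9.63 and 8.58 FPKM with Vehicle, 6.07 and 6.80 with PA, and 6.85 and 5.68 with LA. It fell by 0.45 (SE 0.16) and 0.48 (SE 0.16), with adjusted p = 0.036 and 0.025, and the LA value was −0.63 without LA library 1, past a fold of 1.5. With the GC trend removed the values for Bad were −0.06 and −0.07 (adjusted p = 0.81 for each). Bad also shares exonic bases with Gpr137 on the opposite strand, which fell with PA (−0.66) and LA (−0.76). Bcl2l11 (chr2:128126038-128162547), which encodes BIM, held 2.31 and 2.08 FPKM with Vehicle, 1.67 and 1.70 with PA, and 1.96 and 1.82 with LA. Bcl2l11 fell by 0.38 (SE 0.13) with PA (adjusted p = 0.027, and −0.39 with adjusted p = 0.033 with the GC trend removed), and its difference with LA did not pass (adjusted p = 0.27).

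In counts, 8 of the 10 members passed an adjusted p of 0.05 with PA (3 higher, 5 lower), against 45.5% of all tested genes, and 2 also passed a fold of 1.5 (Pmaip1 and Bbc3), against 14.9%. With LA, 6 members passed the adjusted p (2 higher, 4 lower), against 41.3% of tested genes, and 1 passed both criteria (Bbc3), against 10.6%. After removal of the GC trend, Mcl1 and Bid passed both criteria with PA, where 8.63% of tested genes did, and Mcl1 alone with LA, where 3.4% did. The median difference over the members was −0.24 (log2) with PA and −0.09 with LA.

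In a direct comparison of PA with LA, 1 of the 10 members (Bid) passed the adjusted p, where 11.1% of all tested genes did. The doses differed (200 µM and 12 µM). Bid was 0.52 higher (log2, SE 0.08, 95% interval 0.345 to 0.689) with PA than with LA, with adjusted p = 0.00094 by edgeR's quasi-likelihood test, a fold below 1.5. The value was 0.53 with the GC trend removed and 0.59 without LA library 1, past a fold of 1.5. Bcl2 was lower with PA by 0.47 (SE 0.15, adjusted p = 0.066) and passed both criteria only without LA library 2 (−0.63, adjusted p = 0.043). For the other 8 members the adjusted p lay between 0.18 and 0.95, with 95% intervals of −0.209 to 0.0212 for Mcl1, −0.159 to 0.180 for Bcl2l1, −0.152 to 0.220 for Bax and 0.00787 to 0.402 for Bak1. Among BH3-only genes they were −0.082 to 0.402 for Bbc3, −0.187 to 0.462 for Pmaip1, −0.316 to 0.387 for Bad and −0.473 to 0.0803 for Bcl2l11. No member passed both criteria in this comparison by edgeR or DESeq2, 1 passed the adjusted p and 3 an unadjusted p of 0.05 (Bid, Bcl2 and Bak1). Of all tested genes 3.23% passed both criteria and 11.1% the adjusted p.

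Signals of macrophages and of an overlapping gene were set beside the Bid result. Of 6 Kupffer cell and macrophage markers tested, 2 were called higher (Marco and Cd68) and 1 lower (Cd5l) with PA than with LA. Of all tested genes 3.23% were called in that comparison. The summed marker level given above was higher with PA, and most of that sum was Cd68. Clec4f, a defining Kupffer cell marker, was between 0.03 and 0.29 FPKM in every library. The genes whose log2 CPM was most like that of Bid over the 10 libraries, among 11116 compared, were Lcp1 (Pearson r = 0.966), a leukocyte actin-bundling protein, Xpo5 (0.965), which exports miRNA precursors, and Ccl2 (0.964), a monocyte chemokine. The part of macrophage RNA in the Bid difference was not tested. The exons of Bid share 628 bases (17.7% of its exonic bases) with Bcl2l13 on the opposite strand, and whether counting used strand is not given. Bcl2l13 itself differed by −0.02 (log2, SE 0.07) between PA and LA (adjusted p = 0.87).

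With NTP, Bcl2l1, Bak1 and Bbc3 were higher and Mcl1 and Pmaip1 lower than with either FFA alone, and Bid passed no test. Bcl2l1 held 63.9 and 74.5 FPKM with PA+NTP and 73.2 and 79.6 with LA+NTP, above every library with the FFA alone. It rose by 0.43 (log2, SE 0.08, adjusted p = 0.00048) under PA and by 0.61 (SE 0.08, adjusted p = 1.6e-05) under LA by edgeR's quasi-likelihood test. Removal of the GC trend left 0.16 (adjusted p = 0.18) and 0.27 (adjusted p = 0.026). As fitted, the LA value passed a fold of 1.5 but not without LA library 1 (0.58) or LA+NTP library 2 (0.54). Mcl1 held 59.5 and 58.1 FPKM with PA+NTP and 60.6 and 60.6 with LA+NTP, below all Vehicle libraries. Mcl1 fell by 0.55 (SE 0.05, adjusted p = 3.3e-06) under PA and by 0.57 (SE 0.05, adjusted p = 1.3e-06) under LA, and with the GC trend removed by 0.79 and 0.87, past a fold of 1.5. The LA value also passed that fold, at −0.59, when PA+NTP library 1, PA+NTP library 2 or LA library 2 was left out. Bcl2 and Bcl2l11 did not pass the adjusted p for NTP under either FFA.

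Both criteria were passed with NTP by Bak1 under each FFA. Bak1 held 65.6 and 76.6 FPKM with PA+NTP and 62.8 and 65.6 with LA+NTP, above all 6 libraries without NTP. It rose by 0.65 (log2, SE 0.09, adjusted p = 5.6e-05) under PA and by 0.73 (SE 0.09, adjusted p = 1.2e-05) under LA, and by 0.30 and 0.29 with the GC trend removed (adjusted p = 0.030 and 0.034). Without PA+NTP library 2 the PA value was 0.50, a fold below 1.5. Its exons share 614 bases (25.5%) with Ggnbp1 on the opposite strand, a gene with no change in these comparisons that passed the test. Bax differed by −0.15 (SE 0.09, adjusted p = 0.17) under PA, and by −0.60 (adjusted p = 0.00015) with the GC trend removed, a fold past 1.5. Under LA it differed by 0.02 (adjusted p = 0.88) as fitted and by −0.55 (adjusted p = 0.00023) with the trend removed.

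Among BH3-only genes, Bbc3 rose and Pmaip1 fell with NTP under each FFA and Bad rose under LA, and none of the BH3-only genes passed the adjusted p with the GC trend removed. Bbc3 held 9.19 and 9.15 FPKM with PA+NTP and 12.1 and 10.4 with LA+NTP. It rose by 0.53 (log2, SE 0.11, adjusted p = 0.0012) under PA and by 1.01 (SE 0.10, adjusted p = 2.7e-06) under LA by edgeR's quasi-likelihood test. Removal of the GC trend gave −0.17 and 0.03 (adjusted p = 0.28 and 0.86). Bad held 7.13 and 9.71 FPKM with PA+NTP and 10.5 and 9.28 with LA+NTP, and differed by 0.32 (SE 0.16, adjusted p = 0.12) under PA. Bad rose by 0.61 (SE 0.15, adjusted p = 0.0040) under LA. That value was 0.48 (adjusted p = 0.054) without LA library 2, 0.52 (adjusted p = 0.033) without LA+NTP library 1 and 0.07 (adjusted p = 0.76) with the GC trend removed. The exons of Bad share 524 bases (20.5%) with Gpr137 on the opposite strand. Gpr137 rose by 0.93 (SE 0.13, adjusted p = 3.0e-05) in the same comparison and by 0.81 (SE 0.13, adjusted p = 0.00020) with NTP under PA. It fell by 0.66 (SE 0.14) with PA and by 0.76 (SE 0.13, adjusted p = 0.00044) with LA. Reads of Bad and Gpr137 in the shared bases cannot be told apart if strand was not used. Pmaip1 held 2.71 and 3.67 FPKM with PA+NTP and 3.16 and 2.89 with LA+NTP. Pmaip1 fell by 0.48 (SE 0.15, adjusted p = 0.019) under PA and by 0.39 (SE 0.15, adjusted p = 0.038) under LA. The PA value was −0.74 (adjusted p = 0.0014) without PA+NTP library 2, and the values with the GC trend removed were −0.15 and 0.03 (adjusted p = 0.49 and 0.92).

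Bid stayed high with PA and NTP. It held 33.1 and 37.1 FPKM with PA+NTP and 23.4 in both LA+NTP libraries, so that every library with PA lay above every library without it. NTP under PA gave 0.17 (log2, SE 0.08, adjusted p = 0.0996) and NTP under LA gave 0.13 (SE 0.08, adjusted p = 0.20). Against Vehicle, PA+NTP was 0.68 higher (SE 0.08, adjusted p = 0.00011), and 0.69 with the GC trend removed. The fold was below 1.5 without PA+NTP library 2 (0.57).

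Under PA, NTP changed 5 members by adjusted p (3 higher, 2 lower), against 44.7% of tested genes, and 1 by both criteria, against 13.9%. Under LA the counts were 6 (4 higher, 2 lower) against 51.5%, and 4 against 19.3% (Bcl2l1, Bak1, Bad and Bbc3, all higher). With the GC trend removed, 2 members passed both criteria under PA (Mcl1 and Bax, against 6.26% of tested genes) and 1 under LA (Mcl1, against 6.16%). Against Vehicle, 2 members passed the adjusted p with PA+NTP (Bid and Bak1, against 10.1%) and 1 both criteria (Bid, against 2.85%). With LA+NTP no member passed both criteria or the adjusted p by edgeR, none was called by DESeq2 and 1 had an unadjusted p under 0.05, where 0.0922% of tested genes passed both criteria. A test of whether NTP acted differently under PA and LA passed both criteria for 0% of tested genes and for no member by edgeR or DESeq2, with 1 member at an unadjusted p under 0.05. That member was Bbc3, whose rise with NTP was smaller under PA by 0.48 (log2, SE 0.15, unadjusted p = 0.0064, adjusted p = 0.63).

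**Figure D2:**
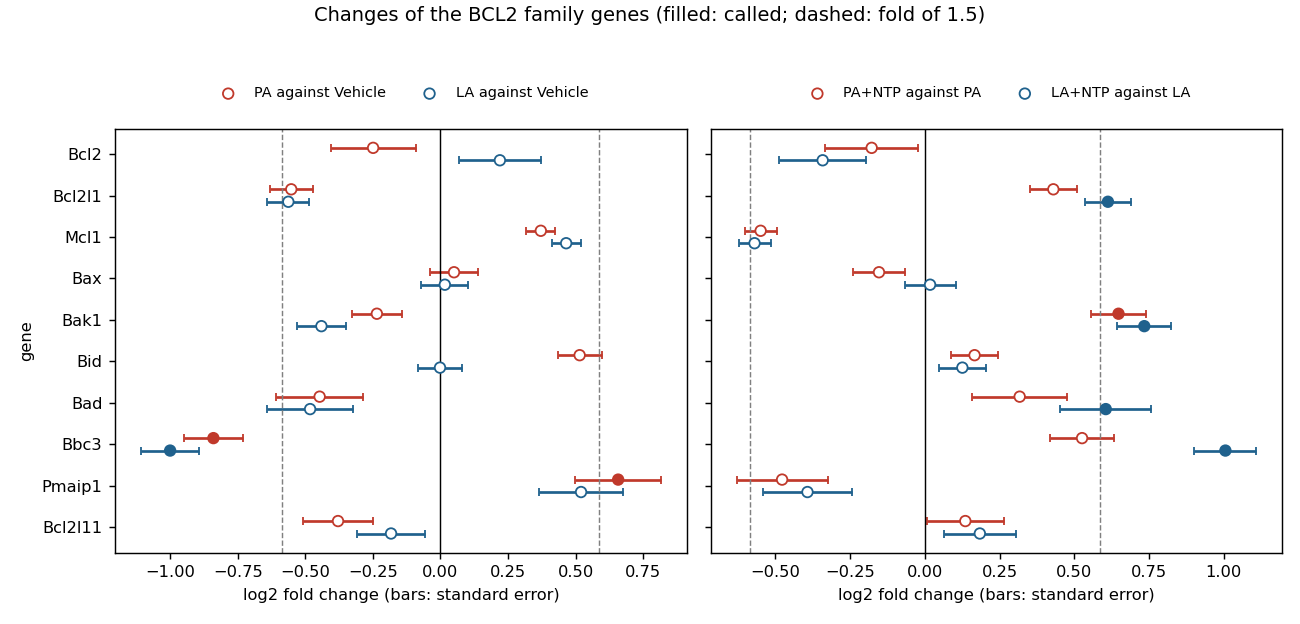
Log2 fold change of each member from edgeR, with its standard error as a bar, for each FFA against Vehicle (left) and for NTP with an FFA against that FFA (right). Points are filled where adjusted p was under 0.05 and the fold at least 1.5 (dashed lines), and Bcl2l1, Bak1, Bad and Bbc3 lie below 0 on the left and above 0 on the right while Mcl1 and Pmaip1 lie the other way.

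Differences of the members ran along their GC content, and the description over 10 genes carries no test. The members ranged from 41.5% (Pmaip1) to 68.0% (Bbc3) G or C in their transcripts, against a median of 50.4% over the tested genes. Over the 10 members, Pearson's r between GC content and log2 fold change was −0.606 (Spearman's rho −0.527) for PA against Vehicle and −0.769 (rho −0.673) for LA against Vehicle. For NTP the sign was opposite, with r = 0.585 (rho 0.600) under PA and 0.720 (rho 0.624) under LA. These points share libraries, and the comparisons share groups. Bid under PA and Mcl1 and Bcl2l1 under each FFA kept an adjusted p under 0.05 with the trend removed, as did Bcl2l11 under PA, and Bax came under it with each FFA only then, whereas Bak1, Bad, Bbc3 and Pmaip1 did not.

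**Figure D3:**
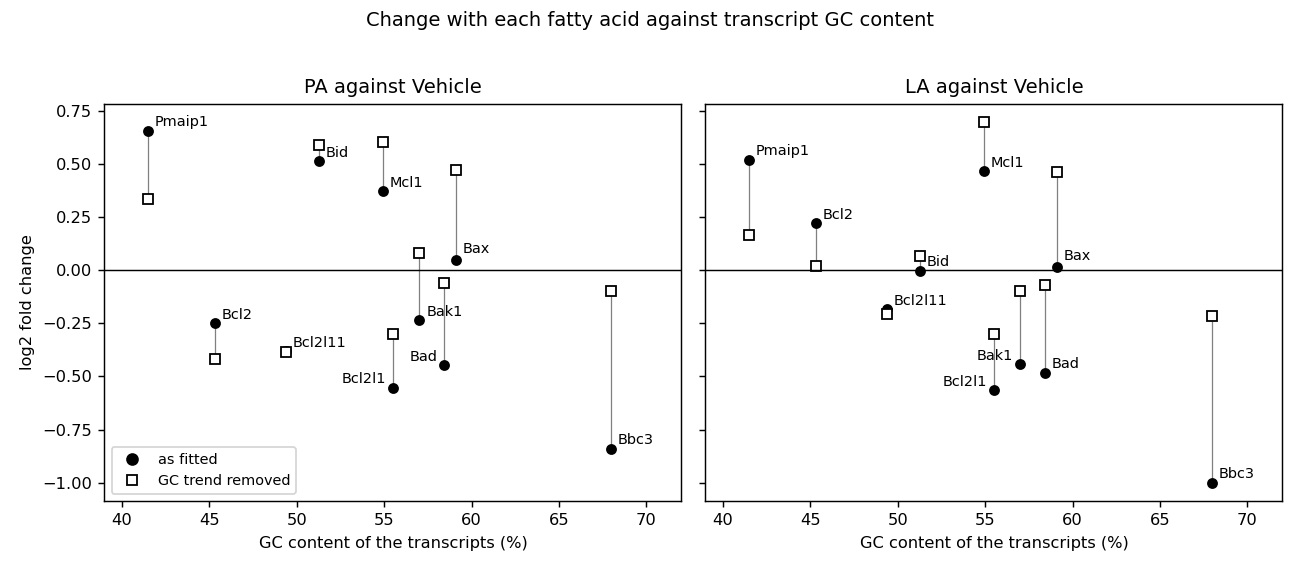
Log2 fold change of each member against the GC content of its transcripts in percent, for PA (left) and LA (right) against Vehicle, as fitted (filled circles) and with the GC trend removed (open squares). Bbc3, at 68.0% G or C, lies lowest as fitted and moves to −0.10 and −0.22, while Mcl1 and Bcl2l1, at 54.9% and 55.5%, stay on opposite sides of 0.

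The mix of guardians differed between groups. The ratio of Bcl2l1 to Mcl1 FPKM was 1.09 and 1.18 with Vehicle, 0.574 and 0.619 with PA, and 0.541 and 0.571 with LA. In the NTP groups it was 1.07 and 1.28 under PA and 1.21 and 1.31 under LA, so the FFA groups without NTP lay apart from the other 3. The 2 genes have nearly the same GC content. The ratio of summed effectors to summed guardians was 1.15 and 1.03 with Vehicle, 1.04 and 1.15 with PA, and 1.01 and 0.974 with LA. It reached 1.29 in both PA+NTP libraries and 1.27 and 1.15 with LA+NTP, where the PA and Vehicle ranges overlapped and the PA+NTP libraries lay above them. That order rests on Mcl1. Without it among the guardians, the mean ratio was 2.05 with Vehicle, 2.89 with PA, 2.74 with LA, 2.39 with PA+NTP and 2.17 with LA+NTP, and the libraries with an FFA alone lay above all others. A permutation test of 2 libraries against 2 cannot give a two-sided p below 0.333, so the ratios carry no test. Summed BH3-only genes gave 47.9 and 45.8 FPKM with Vehicle, 48.6 in both PA libraries and 54.2 and 61.4 with PA+NTP. Under LA the sums were 40.0 and 36.6 FPKM without NTP and 51.4 and 48.1 with it. These sums are of transcripts and say nothing of protein.

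**Figure D4:**
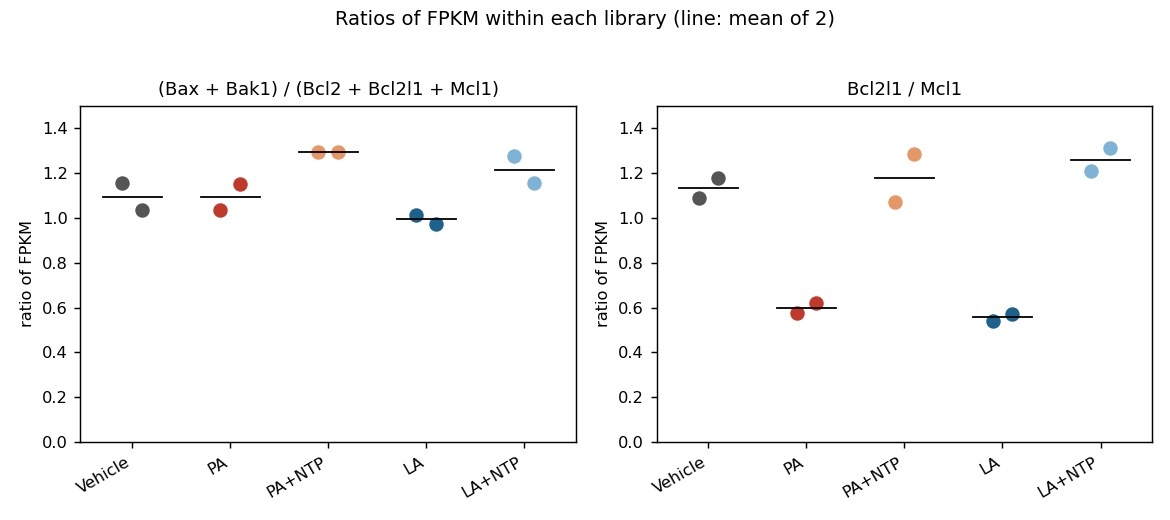
Ratios of FPKM by group, with 1 point per library and a line at the mean of 2, for summed effectors to summed guardians (left) and Bcl2l1 to Mcl1 (right). The Bcl2l1 to Mcl1 ratio lies at 0.541 to 0.619 with an FFA alone and at 1.07 to 1.31 in the other groups.

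Of 14 other genes of the BCL2 family 13 were tested. Both criteria were passed upward and downward by 2 and 2 genes for PA, 0 and 2 for LA, 1 and 0 for NTP under PA, and 3 and 0 for NTP under LA. The shares of all tested genes in the same 4 comparisons were 14.9%, 10.6%, 13.9% and 19.3%. Their median difference was 0.02 (log2) with PA and −0.04 with LA. Bmf, a BH3-only sensor of detachment from the matrix, held 2.05 and 1.92 FPKM with Vehicle, 0.91 and 0.69 with PA, and 1.31 and 1.29 with LA. It fell by 1.33 (log2, SE 0.17, adjusted p = 3.5e-05 by edgeR) with PA, and by 0.97 (adjusted p = 0.00086) with the GC trend removed, and it was lower with PA than with LA by 0.77 (SE 0.18, adjusted p = 0.013). That last value was −0.53 (adjusted p = 0.20) without PA library 2, and its adjusted p was 0.074 without LA library 1 and 0.051 without LA library 2. Bcl2l12 fell with PA (−0.73) and LA (−0.65) and rose with NTP (0.83 and 0.97), and none of these passed both criteria with the GC trend removed. The NTP values under PA and LA then still passed the adjusted p (0.025 and 0.012 by edgeR). Bik fell with LA (−0.64) and rose with NTP under LA (0.76), values of −0.27 and 0.29 with the GC trend removed (adjusted p = 0.46 and 0.36). Bok, a relative of the effectors, rose with NTP under LA by 0.65 (SE 0.15, adjusted p = 0.0022). The Bok value was −0.04 with the GC trend removed, and the fold was below 1.5 without LA+NTP library 1 (0.56). Bik with LA was −0.42 without Vehicle library 1 and −0.43 without LA library 2 (adjusted p = 0.29 and 0.26), its adjusted p was 0.056 and 0.057 without PA library 1 and 2, and with NTP under LA it was 0.117 without LA library 2 and 0.088 without LA+NTP library 1. Bcl2l12 with LA was −0.58 without Vehicle library 1, a fold below 1.5. Bcl2l2, a guardian, was called lower with NTP under each FFA only after the GC trend was removed.

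The Bcl2a1 genes are near-identical copies whose reads may have been split between them, so their values are uncertain. Bcl2a1b, a guardian of blood cells, held 0.15 and 1.25 FPKM with Vehicle, 2.70 and 2.63 with PA, and 0.98 and 0.58 with LA. It was 1.82 higher (log2, SE 0.55, adjusted p = 0.015) with PA than with Vehicle, and 1.11 higher (adjusted p = 0.090) without Vehicle library 1, while without PA library 2 the adjusted p was 0.069. Bcl2a1d, named after its values were seen, was the other one called higher with PA and the 1 family gene called higher with PA than with LA. Bcl2a1d held 0.47 and 0 FPKM with Vehicle and 0.67 and 2.05 with PA, so the PA libraries differed widely. In expected counts it held 6.88 and 0 with Vehicle, 6.86 and 62.0 with PA, and 0 in both LA libraries. Macrophage marker Marco stood beside these values at 0.67 and 0.58 FPKM with Vehicle, 3.95 and 2.90 with PA, and 0.42 and 0.94 with LA, and the part of macrophage RNA was not tested.

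None of 14 genes of the apoptosome and caspases, and none of 6 caspase inhibitors, passed both criteria for either FFA against Vehicle, for PA against LA, or for NTP under either FFA. Among all tested genes 14.9% did with PA, 10.6% with LA, 3.23% for PA against LA, and 13.9% and 19.3% for NTP under PA and LA. For the apoptosome and caspases and for the caspase inhibitors, the median differences were 0.16 and 0.19 (log2) with PA and 0.13 and 0.16 with LA. Over all tested genes they were −0.0081 and −0.0069. Between PA and LA the medians of these lists were 0.04 and −0.06. Dffb and Endog, which act in DNA breakdown, were called higher with PA once the GC trend was removed. Of 8 tested genes of the death receptor arm, 1 passed both criteria in these comparisons, Fas, which fell by 0.66 (SE 0.16, adjusted p = 0.0033) with NTP under PA. Its value was −0.40 (adjusted p = 0.069) with the GC trend removed, and its fold was below 1.5 without PA library 1 (−0.56) or PA+NTP library 2 (−0.45). Of 12 mitochondrial channels and binding partners, Vdac3, a porin of the outer membrane, passed both criteria with PA at 0.61 (SE 0.06, adjusted p = 2.6e-06). At 0.33 with the GC trend removed it passed the adjusted p (0.00099 by edgeR) but did not reach the fold. The Vdac3 fold was also below 1.5 with library-size scaling (0.58).

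Of 13 tested upstream regulators, 1 passed both criteria with PA (Foxo3) and 2 with LA (Foxo3 and Trp53), all lower. The same 2 genes passed upward with NTP under each FFA. Of all tested genes 14.9% passed with PA, 10.6% with LA, and 13.9% and 19.3% with NTP under PA and LA. Foxo3, a transcription factor that drives Bbc3 and Bcl2l11, held 9.86 and 10.9 FPKM with Vehicle, 5.26 and 6.86 with PA, and 6.21 and 6.62 with LA, and 10.7 and 10.5 with PA+NTP. It fell by 0.71 (log2, SE 0.10) with PA and by 0.65 (SE 0.10) with LA, with adjusted p = 9.3e-05 and 0.00019. With NTP it rose by 0.71 (SE 0.10) under PA and by 0.74 (SE 0.10) under LA. Removal of the GC trend took the FFA values to −0.21 and −0.12 (adjusted p = 0.13 and 0.43) and the NTP values to 0.19 and 0.06 (adjusted p = 0.17 and 0.69), so no Foxo3 call was kept. As fitted, the fold was below 1.5 without PA library 1 (−0.57 with PA, 0.57 with NTP under PA) or Vehicle library 2 (−0.58 with LA). Trp53, which encodes p53, held 74.05 and 69.96 FPKM with Vehicle, 53.71 and 57.0 with PA, and 44.45 and 48.4 with LA. Both FFA groups lay below Vehicle with no overlap, but the PA difference did not pass both criteria. Trp53 fell by 0.60 (SE 0.07) with LA and rose by 0.63 (SE 0.07) and 0.71 (SE 0.07) with NTP under PA and LA. Its fold was below 1.5 in these comparisons with the GC trend removed, at −0.41, 0.43 and 0.47. The adjusted p by edgeR still passed there (0.0017, 0.00057 and 0.00032). With LA, that fold was also missed without Vehicle library 1 (−0.55), LA library 1 (−0.53) or either PA+NTP library (−0.58 each), and with NTP under PA without PA+NTP library 2 (0.54). Ddit3, which encodes the stress factor CHOP, held 53.9 and 43.6 FPKM with PA and 32.5 and 29.1 with LA. It was 0.63 higher (SE 0.10, adjusted p = 0.0015) with PA than with LA, and 0.48 without PA library 1 or 0.55 without LA library 2, folds below 1.5. With the GC trend removed Ddit3 and Trib3, a target of CHOP, were called higher with PA than with Vehicle. In that setting both were called lower with NTP under PA, and Trib3 was also called lower with NTP under LA.

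Likeness to other genes was described over the 10 libraries for the other members that passed both criteria in some comparison, with Pearson's r of log2 CPM and no test. For Bbc3 the nearest were Ccdc88c (0.987), Kif1c (0.986) and Akt1 (0.982), for Bak1 Ints3 (0.987), Mta2 (0.982) and Pprc1 (0.980), and for Bcl2l1 Cep170b (0.986), Dlgap4 (0.986) and Gabarap (0.985). Pmaip1 was nearest to Coa6 (0.986), Tra2b (0.981) and Ttc27 (0.971), and Bad to Uqcrq (0.952), Mvb12b (0.944) and Rab6b (0.943). All of these share the libraries and their base composition. Bax and Bcl2 also share exonic bases with other genes, 12.2% with Gm45808 on the same strand and 6.09% with D630008O14Rik on the opposite one.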

How the data were processed

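RNA sequencing of 10 libraries, 2 in each of 5 groups, was analysed from the tables of the authors, grouped and numbered by their labels. The NTP dose (0.4 NU/mL) is that of the study's text. The authors deposited, per library, RSEM expected counts, which are not normalized between libraries, and FPKM values, which they scaled for gene length and library size. The submitters' processing notes name HISAT, Bowtie2, RSEM and build mm10, with versions not given in the sources used here. A gene not listed in a library was taken as 0. Of 18055 gene IDs, 17998 were matched by ID and 11 by accession to the RefSeq table of GRCm38.p6. GC content and exons (98.8% of genes) came from GENCODE M21.

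After rounding, edgeR 4.0.16 (R 4.3.3) was run on the expected counts with the quasi-likelihood F test over all 10 libraries, TMM factors of 0.977 to 1.037 and filterByExpr, which kept 14097 genes and removed 3958. A call needed an adjusted p (Benjamini-Hochberg) under 0.05 together with a change of 1.5-fold or more, the fold used by the study, whose NOISeq rule was not run. The standard error is the log2 fold change divided by the square root of F. Members and lists were chosen with earlier results of these data known. The named genes are all members, up to 4 called genes of each other list and comparison whose mean FPKM was 1 or more, and the 3 genes most correlated with each called member. The test was checked on simulated counts for PA against Vehicle over 13909 genes, where 184 of 200 genes changed 2-fold were recovered (92%) with 2 false calls. That simulation held only 2-fold changes and no GC trend, so it does not show how smaller changes or GC shifts are called. Alternatives were DESeq2 1.42.0, limma 3.58.1 on log2(FPKM + 1) and log2(FPKM + 0.1), library-size scaling, other filters, no fold threshold, only the groups compared, removal of a GC or length trend (loess, span 0.4), a replicate block, and each library left out.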

Additional observations from a re-analysis of the deposited data

Results flagged for a closer look

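Bid is listed because its responses to PA and LA differed by a test of the difference itself. It was 0.52 higher (log2) with PA than with LA, in 2 of 2 libraries against each LA library, with adjusted p = 0.00094 by edgeR's quasi-likelihood test across all genes and a fold of 1.43. Of all tested genes 11.1% passed the adjusted p in this comparison, and Bid was the 1 of 10 members that did. The doses of PA and LA were not the same, so FFA and dose cannot be told apart.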

How the results depend on the processing

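Over 34 values of the members (log2 fold changes of members in single comparisons), DESeq2, no filter and a filter at a mean FPKM of 1 changed no direction and no call. A call needs both criteria, and by adjusted p alone DESeq2 did differ from edgeR. Its adjusted p was 0.068 for Bcl2l11 with PA and 0.064 for Pmaip1 with NTP under LA, which did not pass. For Mcl1 in PA+NTP against Vehicle it was 0.024, which passed, against 0.051 by edgeR. The numbers of members called changed as follows. Without a fold threshold they were 8 with PA, 6 with LA and 1 for PA against LA. They were then 5 for NTP under PA, 6 for NTP under LA and 2 for PA+NTP against Vehicle. With limma on log2(FPKM + 1) there was 1 with PA and 2 with LA, and Bad with NTP under LA (0.58) was no longer called. With limma on log2(FPKM + 0.1) or library-size scaling there were 2 with LA, and Bcl2l1 with PA (−0.59 in each) was called as well. With the GC trend removed, with or without the replicate block, there were 2 for NTP under PA and 1 for NTP under LA, and with the length trend removed 2 for NTP under LA. Leaving out 1 library gave 2 to 3 members with PA, 1 to 2 with LA, 0 to 1 for PA against LA, 3 to 5 for NTP under LA and 0 to 1 for PA+NTP against Vehicle. Removal of the GC trend turned Pmaip1 with NTP under LA to 0.0269 (0.0227 with the block), Bak1 with PA to 0.0833 (0.0771), Bbc3 with NTP under PA to −0.168 (−0.170), Bok with NTP under LA to −0.0385 (−0.0336) and Bid with LA to 0.0656 (0.0665). The cause was not tested. Bid with LA, at −0.0018, also turned to 6.62e-05 with only the groups compared and to 0.0361 with the length trend removed, and it lay between −0.0741 and 0.0723 without 1 library. Bax with PA lay between −0.0520 (without Vehicle library 2) and 0.153 (without Vehicle library 1), and was −0.0342 without PA library 2. With the replicate block by file number it was 0.183, which passed the adjusted p (0.045 by edgeR) but not the fold. Same-numbered libraries deviated together in 2 of 10 pairs of groups (r from −0.0692 to 0.127, with pairs over 0.1 counted), so the numbers give no pairing. The replicate block, by label or by file number, changed none of the 34 values' calls, with 2 members called with PA, 1 with LA and 4 for NTP under LA, and the block by file number took Ddit3 for PA against LA to 0.53, below the fold. No scaling moved the median of all genes by over 0.1. Depth was lowest for Bcl2, with 78.5 expected counts in 1 library.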
